A study of Homo sapiens with 6 samples.

Results

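The peak lists of 4 6mA-IP-seq libraries were mapped onto the locus of RB1, the retinoblastoma tumour suppressor gene, on chromosome 13. A peak was taken when it overlapped the RB1 gene record of the annotation or the 5 kb on either side of it, and peaks of different libraries were merged into 1 region where they shared at least 1 bp. This gave 12 regions built from 29 peaks, of 72537 regions and 143552 peaks in all, and chromosome 13 held 2815 of those regions. All libraries came from the breast cancer cell line MDA-MB-453, a human line long held in culture. The control cells received a scramble siRNA and the si-N6AMT1 cells an siRNA against N6AMT1, a protein proposed to methylate adenine in DNA, both at 10 nM for 48 h with Lipofectamine RNAiMAX. Each group had 2 immunoprecipitated libraries made with an antibody against N6-methyladenine (6mA). The study calls them biological replicates, of 1 cell line, and the peak lists hold no measure of how far N6AMT1 itself was depleted.

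RB1 encodes a pocket protein that binds E2F transcription factors and holds back entry into S phase. Cyclin D with CDK4 or CDK6, and then cyclin E with CDK2, phosphorylate it and release the E2F factors, and CDK inhibitors act upstream of these kinases. 6mA is a common modification of bacterial DNA, whereas its amount and role in mammalian nuclear DNA are debated. In 6mA-IP-seq, sheared and denatured DNA is pulled down with the antibody, and a peak is a place where the pulled-down fragments pile up above the local background. A peak therefore marks a stretch of enriched fragments and not a single methylated adenine.

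The lists of control replicates 1 and 2 held 30451 and 33410 peaks, and those of si-N6AMT1 replicates 1 and 2 held 38847 and 40844. Read totals are not part of the lists, so relative depth was worked out from the lowest background level and the fragment length in each list. Set to 1.00 in control replicate 1, it was 1.32, 1.38 and 1.5 in the other libraries in the same order. Both si-N6AMT1 libraries were thus deeper than both control libraries, so depth and siRNA cannot be told apart in any count of peaks. The part of depth in the RB1 counts was not tested beyond the values at equal list length given below.

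The gene record of RB1 (chr13:48877880-49173572 in hg19, plus strand, 295.7 kb) reached well past the transcript that makes the known protein. The canonical transcript has 27 exons and spans chr13:48877887-49056026, or 178.1 kb. The end of the record was set by a transcript of 2 exons (chr13:48955386-49173572, 218.2 kb) that the annotation marks as incomplete at both ends. Of the 12 regions, 8 lay within the canonical transcript and 4 lay past its end, where other genes share the interval. No peak of any library touched the 5.01 kb of the window before the canonical start, which holds the promoter and the start of the divergent long non-coding RNA RB1-DT.

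**Figure D1:**
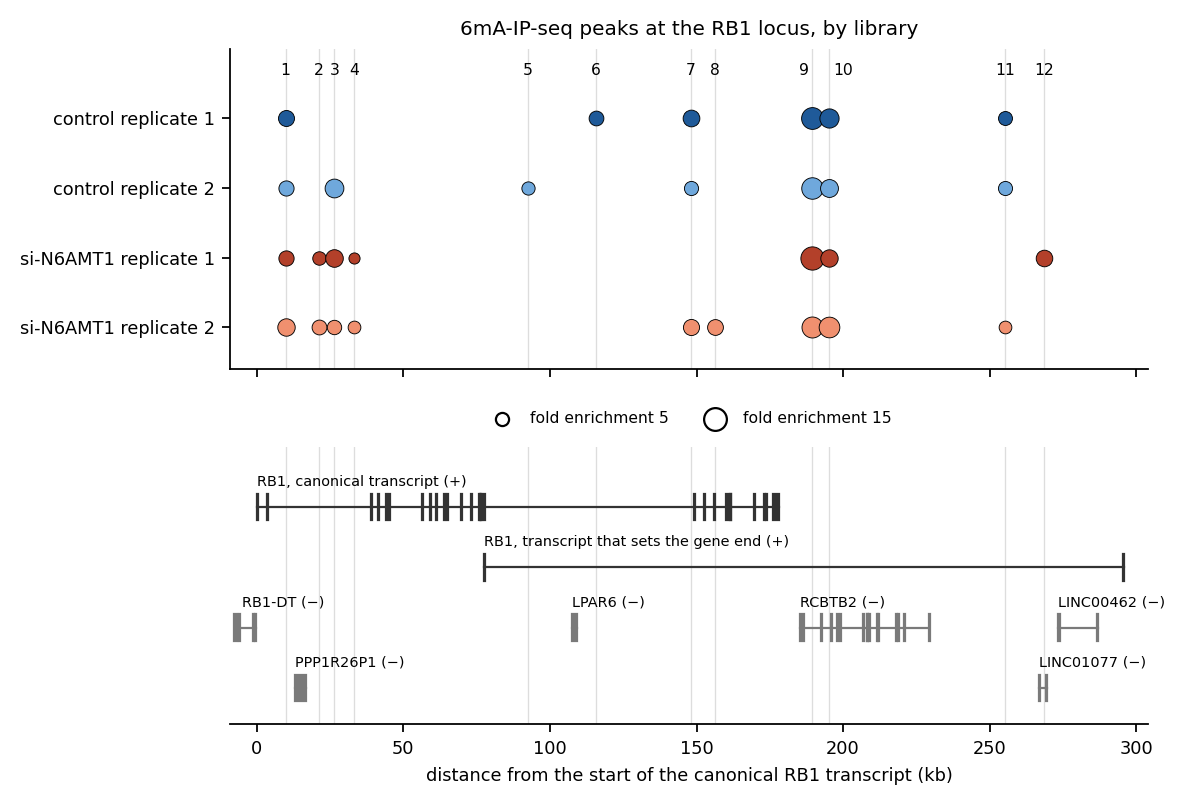
Peaks at the RB1 locus by library (upper panel; area of a circle in proportion to the fold enrichment at the summit, regions numbered 1 to 12) above gene models (lower panel), against distance from the canonical RB1 start in kb. For genes other than RB1 the canonical transcript is drawn, boxes are exons and the sign gives the strand. Regions 9 and 10, with the highest folds, sit past the last canonical RB1 exon, over RCBTB2, and regions 1 to 4 sit together in intron 2.

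Within the canonical transcript the peaks were unevenly spread over introns. Intron 2 (chr13:48881543-48916734, 35.2 kb) held regions 1 to 4, with 1 peak in control replicate 1, 2 in control replicate 2 and 4 in each si-N6AMT1 library. Intron 17 (chr13:48955580-49027128, 71.5 kb) held regions 5 to 7, with 2 peaks in each control library and with 0 and 1 in si-N6AMT1 replicates 1 and 2. Introns 2 and 17 are listed because regions fell in them, and a difference between groups was not tested in either. Over chromosomes 1 to 22 and X the groups did not overlap either, with 10.7 and 11.8 peaks per Mb in control cells and 13.7 and 14.4 in si-N6AMT1 cells. Intron 17 ran the other way, but the control peaks there were partly at different sites. Region 5 was called only in control replicate 2 and region 6 only in control replicate 1. Region 7 was called in both control libraries and also in si-N6AMT1 replicate 2. How often stretches of like length separate in either direction was not worked out. Region 8 was the only one to touch a canonical exon. It overlapped exon 20 (chr13:49033824-49033969) by 127 bp, while its summit lay in intron 20, 115 bp from that exon. The canonical transcript held 17 peaks in all, as 3 and 4 in control cells and 4 and 6 in si-N6AMT1 cells. The stretch past its end held 3 peaks in every library.

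Several regions lay in more than 1 gene. Regions 5 and 6 fell within the gene record of LPAR6, a receptor for lysophosphatidic acid encoded on the opposite strand inside RB1 intron 17, though outside its exons. Regions 9 and 10 fell in introns of RCBTB2 (chr13:49063099-49107392, minus strand), which encodes a protein with RCC1 repeats and a BTB domain. Region 12 fell within LINC01077, a long non-coding RNA gene, and region 11 in no other gene. The pseudogenes PPP1R26P1 and PCNPP5, the non-coding gene LINC00462 and the 4 non-coding genes without a symbol held 0 regions. Peaks carry no strand, so a region in 2 genes cannot be given to either of them.

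The reference sequence (hg19, plus strand) at the regions called in every library is given first. The 50 bases on either side of the strongest summit are printed, with bases in capitals where they lie in a tandem repeat, meaning a unit of 1 to 4 bases repeated without a break over at least 12 bases.
RB1 region 1 (chr13:48887655-48887755): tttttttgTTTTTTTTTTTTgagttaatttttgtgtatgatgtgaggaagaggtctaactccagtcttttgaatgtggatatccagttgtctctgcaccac
RB1 region 9 (chr13:49067359-49067459): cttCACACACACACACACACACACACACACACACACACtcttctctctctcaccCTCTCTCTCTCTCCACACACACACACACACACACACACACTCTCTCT
RB1 region 10 (chr13:49073173-49073273): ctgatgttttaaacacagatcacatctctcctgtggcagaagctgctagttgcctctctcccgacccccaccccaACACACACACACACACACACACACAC
The printed sequence of region 9 was mostly CA and CT repeats, with 82 of its bases in tandem runs, and that of region 10 ran into a CA repeat at its end. Region 1 held a single T run in unique intron sequence.

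Region 2 is shown because it was called in both si-N6AMT1 libraries and in neither control library. It held a short TTTG repeat within a T-rich stretch.
RB1 region 2 (chr13:48898935-48899035): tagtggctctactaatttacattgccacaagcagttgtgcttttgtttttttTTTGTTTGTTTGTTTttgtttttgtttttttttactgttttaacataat

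Regions 3 and 11, each called in 3 libraries, held no tandem repeat at the summit. Region 8 is shown with them, chosen after its values were seen, for its long TTTC repeat next to exon 20.
RB1 region 3 (chr13:48904347-48904447): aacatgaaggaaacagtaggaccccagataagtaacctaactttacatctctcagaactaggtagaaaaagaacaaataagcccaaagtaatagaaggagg
RB1 region 11 (chr13:49133143-49133243): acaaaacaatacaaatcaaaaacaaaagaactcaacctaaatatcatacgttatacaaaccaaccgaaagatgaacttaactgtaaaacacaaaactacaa
RB1 region 8 (chr13:49034034-49034134): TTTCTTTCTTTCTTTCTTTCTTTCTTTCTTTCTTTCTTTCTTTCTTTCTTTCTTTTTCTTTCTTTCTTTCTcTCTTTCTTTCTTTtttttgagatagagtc

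Regions 1, 9 and 10 were called in all 4 libraries. Fold enrichment below is the fragment pileup at the summit over the local background, each with 1 added, as the peak caller gives it. With 1 added to both, a fold is not free of library depth. The −log10 p is that caller's Poisson score, for which a call needs 5. Region 9 (chr13:49067087-49067829), in RCBTB2 and 11.4 kb past the canonical end, was the strongest of the locus. Its folds were 13.73 and 13.37 in control replicates 1 and 2 and 15.64 and 12.76 in si-N6AMT1 replicates 1 and 2. Its −log10 p values were 33.3, 35.4, 41.6 and 32.3 in the same order, which put it in the top 4.04%, 2.31%, 1.48% and 3.28% of each list. The highest and the lowest fold were both from si-N6AMT1 cells, and the 4 summits lay within 82 bp.

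Region 10 (chr13:49072920-49073516), also in RCBTB2, had folds of 10.67 and 9.24 in control cells and 8.74 and 12.35 in si-N6AMT1 cells. The −log10 p values were 22, 20.1, 19.2 and 32.2, and the summits lay within 52 bp. Here too the si-N6AMT1 libraries gave both extremes. Region 1 (chr13:48886782-48888081), the only region called in every library within the canonical transcript, lay in intron 2 at 9.82 kb from the start. Its folds were 7.41 and 6.66 in control cells and 6.73 and 8.78 in si-N6AMT1 cells, with −log10 p of 12.8, 12.3, 12.5 and 19.3. Only si-N6AMT1 replicate 2 stood above the others.

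**Figure D2:**
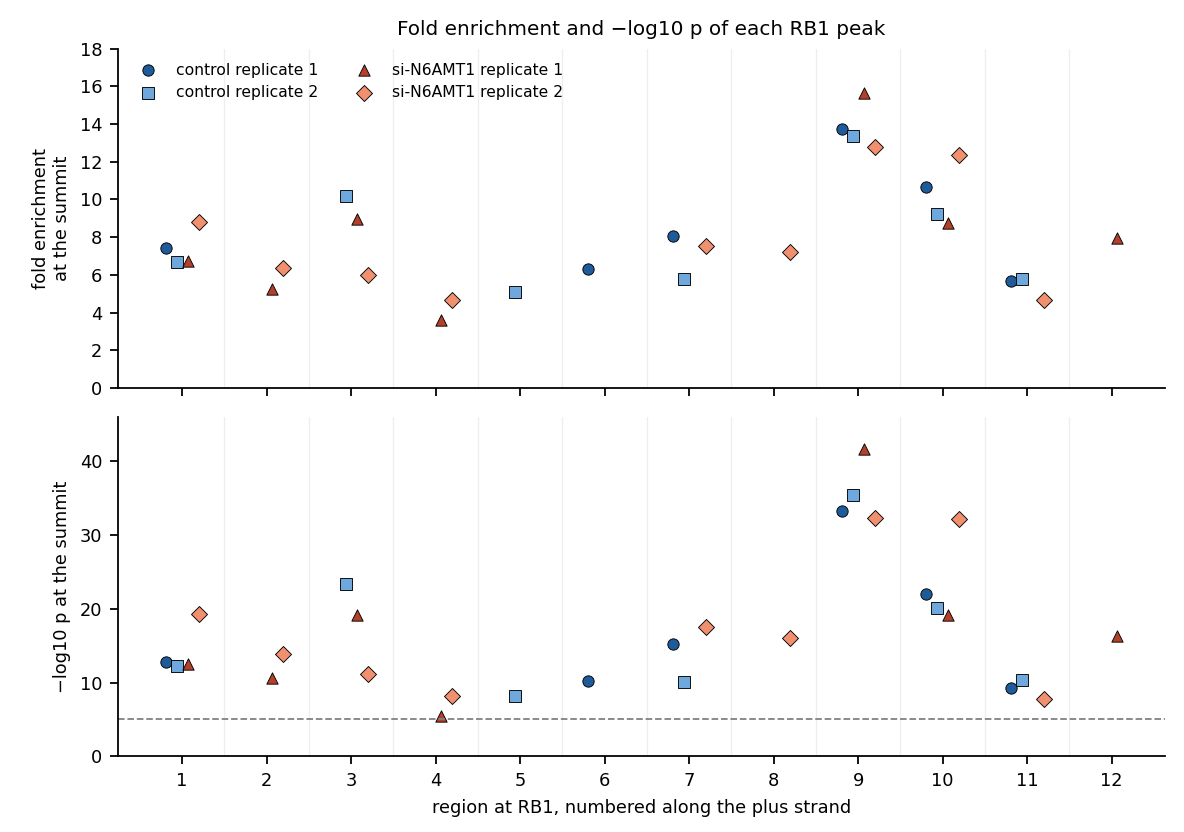
Fold enrichment (upper panel) and −log10 p (lower panel) at the summit of each of the 29 RB1 peaks, by region and library; the dashed line marks the call threshold of 5. In regions 1, 9 and 10 the symbols of the 2 groups interleave, and no symbol stands where a library made no call.

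In none of these 3 regions did the groups separate. The mean fold in region 9 was 13.6 ± 0.257 in control cells and 14.2 ± 2.04 in si-N6AMT1 cells (SD, n = 2 each), a log2 difference of 0.06 (exact two-sided permutation test, p = 1.00). In region 10 the means were 9.96 ± 1.01 and 10.5 ± 2.55, a log2 difference of 0.06 (exact permutation p = 1.00). In region 1 they were 7.03 ± 0.533 and 7.76 ± 1.45, a log2 difference of 0.13 (exact permutation p = 0.667). After Benjamini-Hochberg adjustment over the 3 exact permutation tests each p was 1. With 2 libraries a group the smallest p such a test allows is 0.333, so no difference could have passed 0.05. Across the 12132 regions of the genome called in all 4 libraries, the median log2 difference was -0.05 (quartiles -0.26 and 0.16). There, both si-N6AMT1 libraries were below both control libraries in 24.3% of regions and above them in 16.9%. The signs at RB1 depended on the scale. Divided by relative depth instead of background, the pileup in region 9 was 30.5 ± 3.56 fragments in control cells and 25.8 ± 4.40 in si-N6AMT1 cells (exact permutation p = 0.667), a log2 difference of -0.25. On that scale region 10 gave 20.6 ± 3.44 and 20.3 ± 4.24, and region 1 13.9 ± 1.52 and 14.1 ± 2.63, with overlap of the groups in each. Without si-N6AMT1 replicate 2 the log2 fold difference was -0.06 in region 1 and -0.18 in region 10, without si-N6AMT1 replicate 1 it was -0.09 in region 9, and without control replicate 2 it was -0.04 in region 10.

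**Figure D3:**
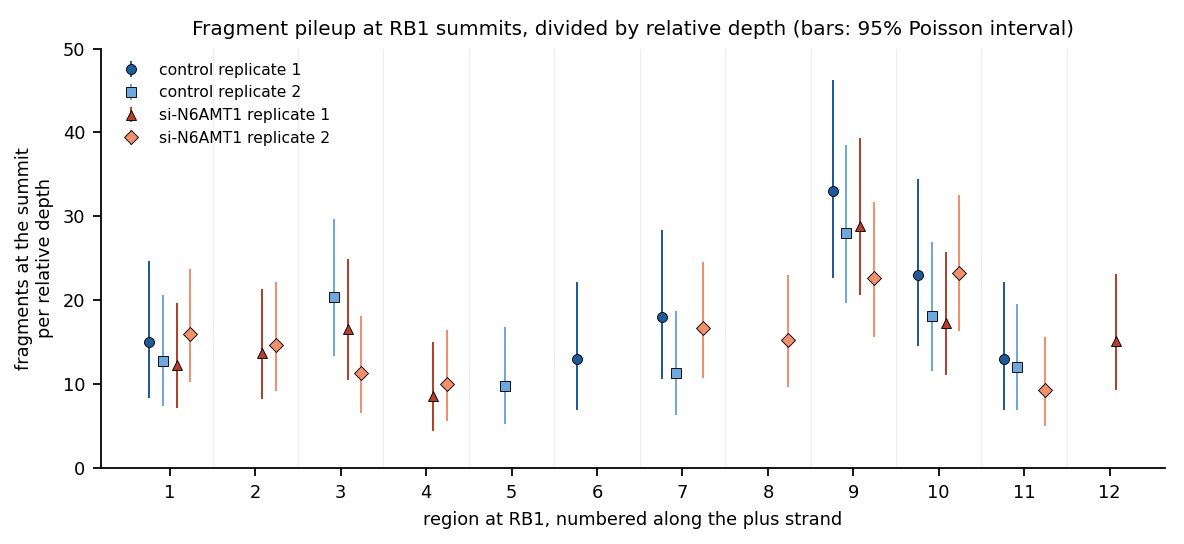
Fragments piled up at each summit divided by the relative depth of the library, with 95% exact Poisson intervals that cover counting error only, by region and library. In region 9 the 4 values run from 22.7 to 33.0 with intervals that all overlap, and the lowest value of the locus, 8.67, is that of region 4 in si-N6AMT1 replicate 1.

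Regions 2 and 4 were called in both si-N6AMT1 libraries and in neither control library, and no region was called in the 2 control libraries alone. Region 2 (chr13:48898428-48899238, intron 2) had folds of 5.27 and 6.36 and −log10 p of 10.6 and 13.9 in si-N6AMT1 replicates 1 and 2. Region 4 (chr13:48910509-48911049, intron 2) had folds of 3.61 and 4.69 and −log10 p of 5.4 and 8.2. Region 4 was among the weakest calls of both lists, since 99.6% of the peaks of si-N6AMT1 replicate 1 and 87.4% of those of replicate 2 had a −log10 p at least as high. Of all regions of the genome, 5.86% were called in both si-N6AMT1 libraries alone and 2.62% in both control libraries alone, and at RB1 these classes held 2 and 0 of 12. With lists cut to equal length, 1 RB1 region was in each class. The 2 against 0 is a count of few regions in libraries of unequal depth.

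Scaled to the depth of the libraries without a call, the pileups of the calling libraries mostly reached the number that a call needs. For region 2, the pileup of the si-N6AMT1 libraries scaled to the depth of control replicates 1 and 2 would be 14.2 and 18.8 fragments, where a call would need 10 and 12 at the scaled background. For region 4 the scaled pileups were 9.33 and 12.3 against 10 and 11 needed, so this region sat at the limit of what could be called. Over all regions, 19 calls were missing, and in 18 of them the scaled pileup reached the number needed. The exception was region 4 in control replicate 1. Both groups had such missing calls. A library that made a call had already passed the same p threshold, so its scaled pileup was likely to reach the number needed. The 18 of 19 was therefore largely set by this choice of libraries. The scaled values come only from libraries that made a call, carry the counting error of those libraries, and the pileup and background in a library without a call are not in its list, so what lay behind a missing call was not tested.

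Regions 3, 7 and 11 were called in 3 libraries, a class that held 13% of all regions and 3 of 12 at RB1. Region 3 (chr13:48904124-48904669, intron 2) had a fold of 10.18 in control replicate 2, folds of 8.97 and 5.98 in si-N6AMT1 replicates 1 and 2, and no call in control replicate 1. Region 7 (chr13:49025797-49026270, intron 17) had folds of 8.08 and 5.80 in control cells and 7.51 in si-N6AMT1 replicate 2. Region 11 (chr13:49132979-49133745), 77.2 kb past the canonical end, had folds of 5.65 and 5.77 in control cells and 4.67 in si-N6AMT1 replicate 2. Each of these 3 regions held calls of both groups. In region 11 the summits were up to 392 bp apart, against at most 151 bp in any other region, so its peaks need not mark the same place. Regions 7 and 11 lacked a call only in si-N6AMT1 replicate 1, and without si-N6AMT1 replicate 2 they would count as 2 regions called in control cells alone.

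Regions 5, 6, 8 and 12 were called in 1 library each, 4 of 12, beside 49.6% of all regions. Region 5 (chr13:48970121-48970585) was called in control replicate 2 with a fold of 5.07 and −log10 p of 8.2. Region 6 (chr13:48993420-48993857) was called in control replicate 1 with a fold of 6.30 and −log10 p of 10.2. Region 8 (chr13:49033843-49034204) was called in si-N6AMT1 replicate 2 with a fold of 7.22 and −log10 p of 16. Region 12 (chr13:49146247-49146657) was called in si-N6AMT1 replicate 1 with a fold of 7.95 and −log10 p of 16.3. The single calls were thus shared evenly between control and si-N6AMT1 cells. The pair from control cells was weaker than the pair from si-N6AMT1 cells, with 13 fragments at each summit against 23 and 21, or 9.82 and 13 against 15.3 and 15.2 per relative depth. The share of RB1 regions called in all 4 libraries, 3 of 12, stood beside 16.7% over the genome.

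Control replicates 1 and 2 held 6 and 7 RB1 peaks and si-N6AMT1 replicates 1 and 2 held 7 and 9. The means were 6.5 ± 0.707 and 8.0 ± 1.41 (SD, n = 2), a difference of 1.5 peaks (exact two-sided permutation test, p = 0.667), and 0.5 with a flank of 20 kb. The groups touched at 7 peaks. The bases covered were 3102 and 3739 in control cells and 3542 and 5391 in si-N6AMT1 cells, a difference of 1046.0 bp (exact permutation p = 0.667), again with overlap. With a flank of 20 kb the difference in covered bases was 1162.5 bp. Within the bounds of the canonical transcript, chosen after seeing the data, it was 1141.0 bp. In both of these settings the groups did not overlap (exact permutation p = 0.333 each, the smallest it allows). With every list cut to its strongest 30451 peaks the counts were 6 and 7 in control cells and 6 and 7 in si-N6AMT1 cells, a difference of 0, and the difference in covered bases was 350.0 bp. Without si-N6AMT1 replicate 2 the differences in the full lists were 0.5 peaks and 121.5 bp, and without si-N6AMT1 replicate 1 they were 2.5 peaks and 1970.5 bp.

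The RB1 record with its flanks had more peaks for its length than its chromosome or the genome in every library. It held 19.6, 22.9, 22.9 and 29.4 peaks per Mb in control replicates 1 and 2 and si-N6AMT1 replicates 1 and 2. Chromosome 13 held 12.3, 13.4, 15.1 and 16.4, and chromosomes 1 to 22 and X held 10.7, 11.8, 13.7 and 14.4. The ratio of RB1 to chromosome 13 was 1.59 and 1.71 in control cells and 1.52 and 1.80 in si-N6AMT1 cells, so the groups overlapped. Of the 29 peaks, 12 lay past the canonical end, 8 of them within RCBTB2. With the bounds of the canonical transcript, chosen after seeing the data, the mean ratio was 1.56, beside 1.65 for the full record. Among the 986 protein-coding genes with a record of 200 to 400 kb, the median was 6.00 regions (quartiles 3.0 and 10.0) and 19.2% had 12 or more. The canonical RB1 transcript, of 178.1 kb with 8 regions, is shorter than this class. These densities are given as a description, without a test, since 1 locus gives no replicate.

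Regions 9 and 10, with the highest mean folds of the locus, lay on long tandem repeats, while region 3, with a fold of up to 10.18, did not. The 150 bases on either side of the strongest summit held 130 bases in tandem runs in region 9, 95 in region 8, 73 in region 10 and 51 in region 12. The other regions held at most 16, and regions 3, 4, 5, 6 and 11 held 0. The median over the 12 regions was 13.5 bases, beside 13 over all regions of the genome, while windows of the same length tiling the locus had a median of 0. A threshold of 50 bases, chosen after the sequences were seen, was met by 4 of 12 RB1 regions, by 14.6% of all regions and by 0.591% of the 1015 windows tiling the locus. Of the 6 tiling windows that met it, 4 touched a called region, and these touched regions 8, 9, 10 and 12. Windows touching a called region made up 3.25% of the 1015.

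**Figure D4:**
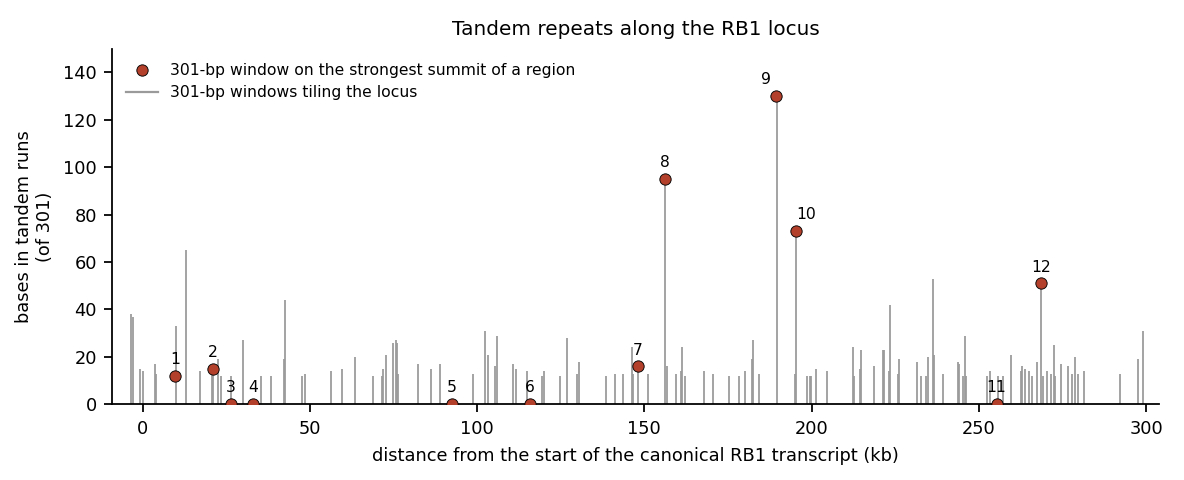
Bases in tandem runs in windows of equal length tiling the RB1 locus (grey lines) and in the window on the strongest summit of each region (red points, numbered), against distance from the canonical start in kb. The tallest lines of the locus fall at regions 9 (130 bases) and 8 (95 bases), and 5 regions sit at 0.

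By kind of repeat, a CA repeat of at least 6 units on either strand was found in 2 of 12 windows (regions 9 and 10), in 8.55% of all regions and in 0.788% of the locus windows. A GA repeat of at least 6 units on either strand was found in 3 (regions 9, 10 and 12), in 7.49% of all regions and in 0.690% of locus windows. A run of at least 10 A or 10 T was found in 5 (regions 1, 2, 3, 7 and 12), in 34.4% of all regions and in 10.8% of locus windows. Regions 9 and 10, which held both dinucleotide repeats, had the highest mean folds of the locus. Region 3, which reached a fold of 10.18 in control replicate 2, held such an A or T run, though none of the 12 bases counted as tandem. The study's leading motif, CAGGCTGG, searched on both strands, was found in 1 of 12 windows (region 12), in 16.8% of all regions and in 9.06% of locus windows. Its core CAGG, which the longer motif includes, was found in 9, in 79.8% of all regions and in 85.6% of locus windows. The GC content ran from 27.9% in region 2 to 49.5% in region 9, with a median of 37.2% beside 37.5% over all regions and 37.9% along the locus. These matches are letters of the reference and not methylated sites.

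Some regions were made of sequence that occurs elsewhere in the genome. The share of 31-base words in the window that occurred once in hg19 on both strands was 0% in region 4, 29.9% in region 6, 35.1% in region 8, 44.6% in region 12 and 45.0% in region 5. It was 99.6% in region 1 and 100.0% in region 3, and 75.6% and 78.6% in regions 9 and 10. The median over the 2815 regions of chromosome 13 was 84.5% (quartiles 61.3 and 98.5). All 4 single-library regions and region 4, 1 of the 2 regions called only in si-N6AMT1 cells, were therefore below the lower quartile of the chromosome, and so was region 7 at 55.4%. How reads from such copies were placed was not tested.

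The study's primer pair for 6mA-IP-qPCR at RB1 did not fall on these regions. The primers, printed because they define where a qPCR value labelled RB1 would be read, each had 1 exact match in the reference.
forward primer: gctagcaaggcttctgtaggt
reverse primer: tcaactttctagaagtgtgggca
Both matches were on chromosome 4 (chr4:48437084-48437104 on the plus strand and chr4:48437359-48437381 on the minus strand), and together they enclosed a product of 298 bp. The product lay in no annotated gene, 8.87 kb from SLAIN2 and 48.0 kb from SLC10A4, the nearest protein-coding genes. No peak of any library overlapped it, and the nearest peaks were 1933, 34193, 16826 and 16680 bp away in control replicates 1 and 2 and si-N6AMT1 replicates 1 and 2. On chromosome 13 each primer had 0 exact matches and at least 4 mismatches at its best place, and within the RB1 window at least 6 and 7. The study's RT-qPCR pair for RB1 mRNA, by contrast, matched the spliced canonical transcript exactly, from exon 1 to exon 3 with a product of 180 bp. The qPCR measurements themselves were not analysed here.

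Other genes of the RB1 pathway were read in the same way, as a list of 32 genes with RB1. The list is a selection and not the whole pathway, and the inhibitor gene CDKN2A is not on it. A peak in the gene or 5 kb on either side was present in 16 and 11 of the genes in control replicates 1 and 2 and in 15 and 18 in si-N6AMT1 replicates 1 and 2. The means were 13.5 ± 3.54 and 16.5 ± 2.12 genes (SD, n = 2), a difference of 3.0 (exact two-sided permutation test, p = 0.667). Control replicate 1 lay within the range of the si-N6AMT1 libraries. The share of all protein-coding genes with a peak is not given by library here, so this difference was not set beside that of all genes. With lists cut to equal length the difference was 1.0 gene. Leaving out 1 library, it ran from 0.5 without control replicate 2 to 5.5 without control replicate 1. Of the 31 genes other than RB1, 20 had a peak in any library and 11 had none, beside 54.3% of all protein-coding genes with one. Those 31 genes held 59 regions, of which 10 (16.9%) were called in all 4 libraries, 2 (3.39%) only in both control libraries and 5 (8.47%) only in both si-N6AMT1 libraries. The shares over all regions of the genome were 16.7%, 2.62% and 5.86%, so those of the list were near the background. In the 10 regions called everywhere, both si-N6AMT1 folds were below both control folds in 3 (1 each at RBL1, CCND3 and CDKN2C). They were above them in 2 (both in TFDP2), and the groups overlapped in 5. Over the genome the shares below and above were 24.3% and 16.9%.

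**Figure D5:**
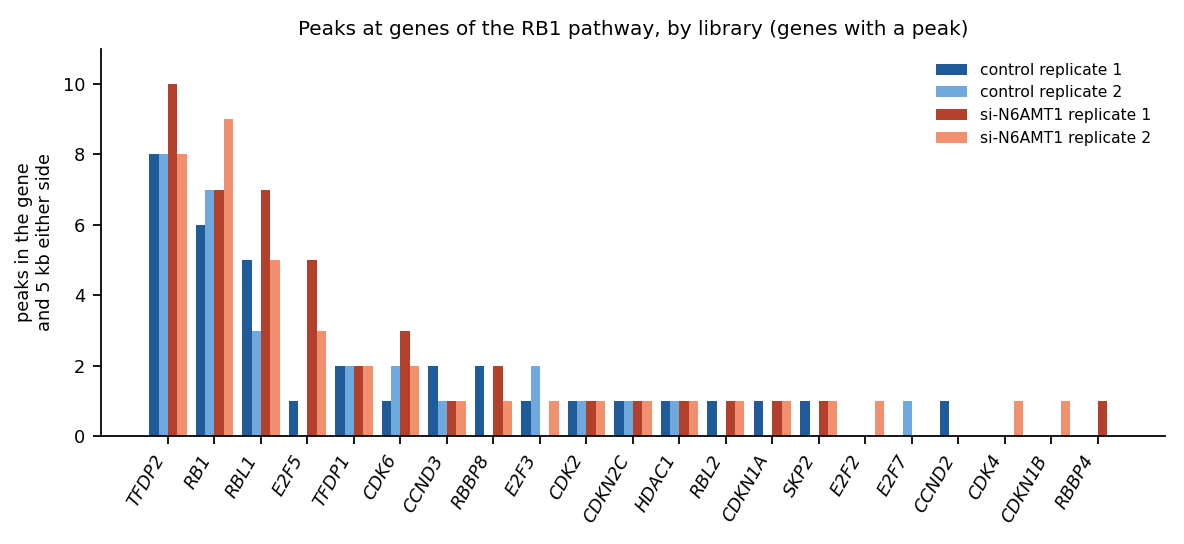
Number of peaks per library (bars) in each gene of the RB1 pathway list with at least 1 peak, counted over the gene and 5 kb on either side. TFDP2, RB1 and RBL1 have the most, and most of the other genes have 0 to 2 in a library.

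Among the pocket proteins, the RB1 relative RBL1 had 5 and 3 peaks in control cells and 7 and 5 in si-N6AMT1 cells. Its strongest region, chr20:35629948-35630641, had folds of 11.01 and 8.31 in control cells and 6.44 and 6.40 in si-N6AMT1 cells. The groups did not overlap there. Its second region called everywhere had folds of 5.94 and 5.79 in control cells and 4.63 and 6.01 in si-N6AMT1 cells, so the pattern did not extend to it.

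Among the E2F factors and their partners, TFDP1 and TFDP2, which encode the DP subunits that pair with E2F proteins, held 5 of the 10 regions called in all 4 libraries. TFDP2 had 8 and 8 peaks in control cells and 10 and 8 in si-N6AMT1 cells over 205.1 kb. At chr3:141684234-141684669 its folds were 8.01 and 8.34 in control cells and 9.24 and 10.16 in si-N6AMT1 cells, and at chr3:141800117-141800694 they were 4.33 and 6.92 against 7.66 and 9.15. In its other region called everywhere the groups overlapped. TFDP1, near the far end of the long arm of chromosome 13, had 2 in each library, with folds of 12.69, 12.69, 10.47 and 13.29 in the stronger, chr13:114242848-114243522. E2F3 and E2F5 each had a region called in 3 libraries, with folds of 6.07 to 6.80 and 4.59 to 5.12. Of the other E2F genes, 4 had no peak in any library.

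Among the kinases and cyclins that act on the protein, CDK2 had 1 region just past its 3′ end, chr12:56366688-56367189, with folds of 10.50 and 9.01 in control cells and 10.46 and 9.18 in si-N6AMT1 cells. The cyclin D gene CCND3 had 2 regions, and the 1 called in every library had folds of 10.04, 12.35, 8.70 and 9.89 in library order. CDK6 had a region called in 3 libraries, with folds of 8.95 in control replicate 2 and 12.35 and 9.31 in si-N6AMT1 cells. The groups overlapped in CDK2, while in CCND3 both si-N6AMT1 values were below both control values.

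Among the inhibitors upstream, CDKN2C, which encodes the CDK4 and CDK6 inhibitor p18, had a region just before its 5′ end, chr1:51424225-51425420, in the 5 kb flank. The folds there were 8.53 and 10.18 in control cells and 8.22 and 7.91 in si-N6AMT1 cells, without overlap. CDKN1A, which encodes p21, had 1 called in 3 libraries, with folds of 7.55 in control replicate 1 and 5.03 and 6.64 in si-N6AMT1 cells. The co-repressor gene HDAC1 had 2 regions, and the 1 called in 3 libraries had folds of 9.24 in control replicate 1 and 12.14 and 10.89 in si-N6AMT1 cells. SKP2, which encodes an F-box protein that targets p27 for degradation, had 6.52 in control replicate 1 and 6.23 and 4.60 in si-N6AMT1 cells. Each of these 3 regions lacked a call in control replicate 2. Single genes of the list were not tested one by one.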

How the data were processed

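Sheared, denatured DNA of MDA-MB-453 cells was immunoprecipitated with a 6mA antibody and sequenced as read pairs. The authors aligned reads to hg19 with Bowtie2 2.3.5, dropped duplicate reads (SAMtools 1.9) and ran MACS2 on every library at p = 1e-05. Which input library each call used is not given in the sources used here, and the 2 input libraries were not analysed here. Per the deposited lists, a peak has a score (10 times −log10 p, as a whole number), a fold enrichment ratio, −log10 p, −log10 q and a summit. The columns hold no read counts, but the fold and the −log10 p together fix the pileup and the local background, which were recovered by root solving. The pileup came out whole to within 0.02 for 100.0% of peaks in each library, and relative depth was taken as the lowest background over the smallest peak width. This assumes that MACS2 set the lowest background from library size and fragment length.

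Gene bounds and exons were read from the GENCODE 44 annotation lifted to GRCh37, the same build. Groups were compared over libraries with exact two-sided permutation tests. Libraries were not paired by replicate number in these tests, since the labels do not say whether same-numbered libraries were handled together. The sequences of some regions are not reported here. The genes named were RB1 with every region, genes overlapping its record or flanks, and pathway genes with a region called in at least 3 libraries. The locus and the lists were chosen with earlier results of these data known. Alternatives were list length, a −log10 q of 5, merging by summit or at 50% overlap, a flank of 20 kb, other scales of enrichment, leaving out each library and, chosen after seeing the data, the bounds of the canonical transcript. The tools were pysam 0.24.0, scipy 1.17.1, pandas 2.3.3 and numpy 2.4.6 under Python 3.11.15, and recovery, merging and repeat search were tested on simulated data.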

Additional observations from a re-analysis of the deposited data

How the results depend on the processing

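With lists cut to equal length the difference in RB1 peaks was 0, in covered bases 350.0 bp and in pathway genes 1.0, and 1 region each was called in control cells alone and in si-N6AMT1 cells alone. The count in si-N6AMT1 cells alone was also 1 at a −log10 q of at least 5 and at 50% overlap, and merging by summit gave 1 in control cells alone. A flank of 20 kb gave a difference of 0.5 RB1 peaks, 1162.5 covered bp and a mean ratio of RB1 to chromosome 13 density of 1.83. Within the bounds of the canonical transcript, chosen after seeing the data, 1 region was called in all 4 libraries. The difference in covered bases there was 1141.0 bp. Scaled by relative depth, the log2 difference was 0.01 in region 1, -0.25 in region 9 and -0.02 in region 10. Pileup over background without the added 1 gave 0.02, 0.05 and -0.07 in the same order. Leaving out each library in turn gave 0.5 to 2.5 peaks, 121.5 to 1970.5 bp, 0 to 2 regions in control cells alone, 2 to 3 in si-N6AMT1 cells alone, 3 to 5 in all libraries and 0.5 to 5.5 pathway genes. The same gave log2 differences of -0.06 to 0.32 in region 1, -0.09 to 0.21 in region 9 and -0.18 to 0.31 in region 10. Of the alternative values, 7 changed sign. Many that kept their direction differed in size. The cause was not tested, apart from fewer peaks or libraries where the alternative itself removes them. Taking the replicate number as a block gave 1.5 peaks and 1046.0 bp (exact permutation p = 0.5 each, the smallest it allows) and 3.0 pathway genes (exact permutation p = 1.00). The difference between replicates 1 and 2 in control cells had a correlation of 0.00530 with that in si-N6AMT1 cells, over 72537 regions. Of all regions, 49.6% were called in 1 library. Such a correlation therefore cannot tell whether same-numbered libraries were handled together. Precision was limited by 2 libraries a group and by pileups of 12 to 40 fragments.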

Other observations

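The study's other primer pairs for 6mA-IP-qPCR were searched for exact matches in the gene each is named for and 20 kb on either side. Of these 7 pairs, both primers matched there for 1.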
